A study of Mus musculus with 9 samples.

Results

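The genes described are Trp53, which encodes the transcription factor p53, and 9 genes that p53 activates directly in many tissues: Cdkn1a, Mdm2, Ccng1, Phlda3, Sesn1, Zmat3, Aen, Perp and Btg2. They were chosen by symbol, with earlier results of these data known, and all 10 were present among the 46958 genes of the count table. Of the 10, 9 passed the filter on low counts and were tested; Perp did not pass.

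p53 is held at a low level in resting cells by MDM2, a ubiquitin ligase that marks it for degradation. DNA damage and other stresses release p53 from MDM2, mostly without a change of its mRNA, and p53 then raises the transcription of genes that stop the cell cycle, repair DNA, limit growth signals or start apoptosis. Because MDM2 is itself a target, p53 raises its own inhibitor, and the joint level of the target mRNAs is a common readout of p53 activity. Plasma cells are the antibody-secreting end stage of the B cell lineage, in which most cells have left the cell cycle.

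RNA was sequenced from plasma cells of the spleen, taken with magnetic beads against CD138, of mice aged 3 months that had not been immunized. There were 3 genotypes on a mixed C57/BL6x129/SVxBALB/c background, WT, DH-LMP2A and kFRA, with 3 mice each, and a library held the cells of 1 spleen. The kFRA label carries the note LCDD, for light chain deposition disease, in which an immunoglobulin light chain deposits in organs, and the study concerns the toxicity of such a chain to the plasma cells that make it. The labels describe no allele, promoter or insertion further, and do not say whether kFRA mice also carry the DH-LMP2A allele. As background, LMP2A is a membrane protein of Epstein-Barr virus that gives B cells a survival signal in place of the B cell receptor. Because the comparisons share their libraries (WT enters 2 of them, and so do DH-LMP2A and kFRA), their values below are set side by side and not as independent results.

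Total counts ranged from 15449026 to 21558128 per library. Levels are given as CPM, the count as a share of the library's total on a common scale, with libraries brought to one level by edgeR's TMM factors, and 3 counts, taken as the floor of detection, were worth 0.127 to 0.205 CPM. The defining markers of plasma cells were present, and none was at 0 in any library. Sdc1, which encodes CD138, lay at 576 CPM ± 94.4 (SD, n = 3) in DH-LMP2A, 611 ± 93.4 in kFRA and 411 ± 118 in WT. The summed CPM of 8 plasma cell markers, Jchain the most abundant, was 34147 to 47160 in DH-LMP2A, 20401 to 32064 in kFRA and 18890 to 24141 in WT. Against WT, 7 of these 8 markers were higher and 1 was lower in each other genotype. The lower one was Tnfrsf17, with means of 22.0 CPM in DH-LMP2A, 15.3 in kFRA and 49.3 in WT. The stated purity was only above 80%, and other cells were present to unequal degrees. The summed CPM of 8 myeloid markers was 718 to 2102 in DH-LMP2A, 1489 to 2179 in kFRA and 2559 to 4437 in WT. That of 8 erythroid markers was 2566 to 13641, 1167 to 2807 and 39.3 to 341 in the same order, that of 8 B cell markers 732 to 1104, 540 to 635 and 631 to 916, and that of 8 T cell markers 107 to 156, 77.3 to 93.8 and 90.9 to 157. That of 8 granulocyte markers was 21.7 to 259, 8.75 to 27.7 and 256 to 822. In a bulk sample, fewer cells of a type and less RNA per cell cannot be told apart. Within kFRA, replicate 2 stood apart: without it, the genes past the threshold rose from 713 to 3299 against DH-LMP2A and from 2523 to 5632 against WT.

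Read per kilobase of merged exons, which allows genes to be compared, the level of the members spanned from Btg2, with a mean of 117 CPM per kilobase over the 9 libraries (80.9 to 167), to Perp, with 0.0737 (0 to 0.322). Between them came Sesn1 with 71.1 CPM per kilobase (14.4 to 181), Ccng1 with 19.8 (15.3 to 27.0), Mdm2 with 13.7 (10.9 to 15.7) and Trp53 with 10.04 (8.69 to 11.7). A step lower lay Aen with 2.41 (2.12 to 2.61), Cdkn1a with 1.28 (0.515 to 2.46), Zmat3 with 0.904 (0.676 to 1.41) and Phlda3 with 0.396 (0 to 0.949). Trp53 and Aen were the only neighbours in this order whose ranges over the 9 libraries did not overlap. Cdkn1a, the target used most often as a readout of p53, was thus among the lower members in these cells, below Mdm2 in all 9 libraries.

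**Figure D1:**
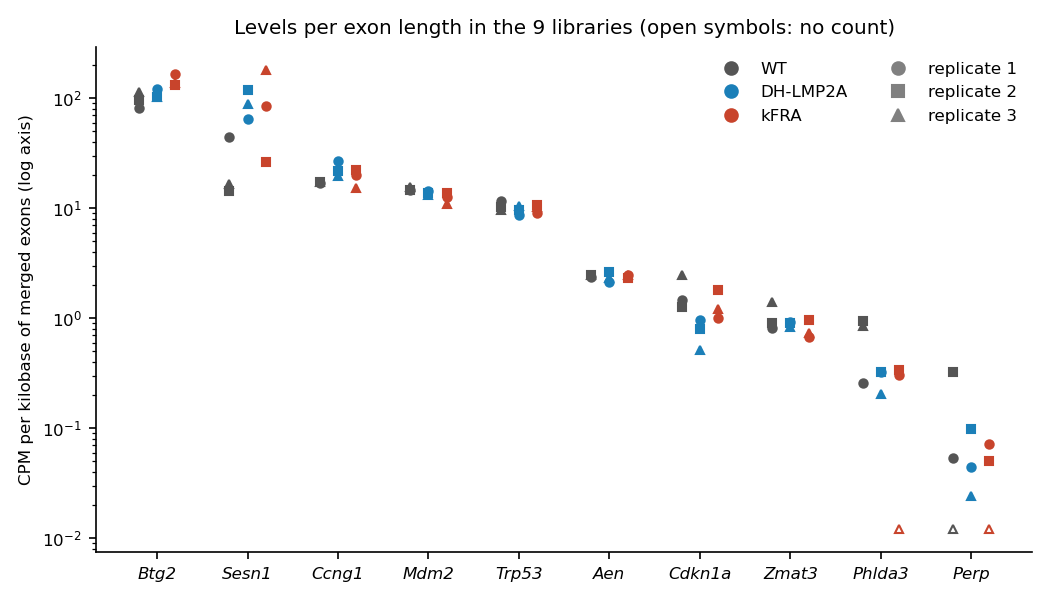
Level of the 10 genes in each of the 9 libraries, in CPM per kilobase of merged exons on a log axis, ordered by the mean over the libraries. Colours are genotypes, shapes are replicates and open symbols at the bottom are libraries with no count. Btg2 and Sesn1 lie highest and Phlda3 and Perp lowest.

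The members differed in how much they varied. Over the 9 libraries the coefficient of variation was 5.92% for Aen, 9.14% for Trp53 and 10.1% for Mdm2, and between 18.2% and 23.5% for Ccng1, Btg2 and Zmat3. It was 45.4% for Cdkn1a, 76.6% for Sesn1, 77.3% for Phlda3 and 133% for Perp. The last 2 rest on few counts, at most 29 per library for Phlda3 and 12 for Perp, whereas Sesn1 rests on 874 to 9584 counts per library.

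Trp53 (chr11:69580359-69591873, plus strand, GRCm38) differed between the genotypes by less than the spread of the mice. Its CPM was 35.2, 39.3 and 42.0 in DH-LMP2A replicates 1 to 3, 36.3, 43.2 and 41.6 in kFRA, and 47.4, 41.6 and 38.8 in WT. The genotypes overlapped in every comparison. The log2 fold change was 0.06 for kFRA against DH-LMP2A (95% interval −0.24 to 0.35), −0.08 for kFRA against WT (−0.37 to 0.22) and −0.13 for DH-LMP2A against WT (−0.43 to 0.16), with adjusted p-values of 0.829, 0.692 and 0.585 by edgeR's quasi-likelihood test. The upper bound for kFRA corresponds to 1.27-fold the DH-LMP2A level and 1.16-fold the WT level. Scaled by library size alone, which moved the median of all genes from −0.0049 to −0.14, from −0.038 to 0.17 and from −0.0081 to 0.33 in these comparisons, the values of Trp53 were −0.07, 0.13 and 0.19. They are values of the mRNA, and p53 protein was not measured.

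Mdm2 (chr10:117688888-117710758, minus strand), the ligase that degrades p53, was lowest in kFRA but did not pass the test. Its CPM was 72.4, 70.1 and 66.4 in DH-LMP2A, 64.2, 69.9 and 55.1 in kFRA, and 74.1, 73.9 and 79.6 in WT. All 3 WT libraries lay above all libraries of both other genotypes. Against WT the log2 fold change was −0.27 in kFRA (95% interval −0.54 to 0.00, adjusted p = 0.148) and −0.12 in DH-LMP2A (−0.39 to 0.15, adjusted p = 0.584), and kFRA against DH-LMP2A gave −0.14 (−0.41 to 0.13, adjusted p = 0.504). Scaling by library size alone turned the DH-LMP2A difference from WT to 0.22. A rise of Mdm2 in kFRA above 1.09-fold of DH-LMP2A lies outside the interval, and against WT the interval ends at no change.

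Ccng1 (chr11:40748552-40755311, minus strand) encodes cyclin G1, which recruits a phosphatase to MDM2. Its CPM was 94.99, 76.8 and 69.5 in DH-LMP2A, 70.0, 78.7 and 53.8 in kFRA, and 60.1, 61.2 and 60.5 in WT. All DH-LMP2A libraries lay above all WT libraries, and kFRA spanned both. The log2 fold change of DH-LMP2A against WT was 0.41 (95% interval 0.03 to 0.78, adjusted p = 0.153), that of kFRA against WT 0.16 (−0.22 to 0.53, adjusted p = 0.522) and that of kFRA against DH-LMP2A −0.25 (−0.63 to 0.12, adjusted p = 0.392). Mdm2 and Ccng1 thus had opposite signs against WT in both other genotypes, except that scaling by library size alone made both positive in DH-LMP2A, and neither passed the test.

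Cdkn1a (chr17:29090979-29100722, plus strand) encodes p21, the inhibitor of cyclin-dependent kinases through which p53 arrests the cell cycle. Its level was low, with 51, 38 and 25 counts in DH-LMP2A, 33, 84 and 43 in kFRA, and 65, 55 and 86 in WT. These correspond to 2.16, 1.76 and 1.14 CPM in DH-LMP2A, 2.26, 4.00 and 2.70 in kFRA, and 3.29, 2.81 and 5.48 in WT. The DH-LMP2A libraries lay below all others, and kFRA and WT overlapped. DH-LMP2A replicate 1 and kFRA replicate 1 were nearly at the same level, and their exact Poisson 95% intervals, which cover counting error only, overlapped (1.61 to 2.84 and 1.55 to 3.17 CPM).

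The mean of Cdkn1a was 1.69 CPM ± 0.511 (SD, n = 3) in DH-LMP2A, 2.98 ± 0.904 in kFRA and 3.86 ± 1.42 in WT. The log2 fold change of DH-LMP2A against WT was −1.18 (SE 0.361, 95% interval −1.99 to −0.37), and its adjusted p of 0.0649 missed the threshold of 0.05. It passed under the Wald test of DESeq2 (adjusted p = 0.0242) and with a term for the sex of the mice (adjusted p = 0.0183), and the adjusted p ranged from 0.0183 to 0.183 over all settings tried. That of kFRA against DH-LMP2A was 0.83 (SE 0.363, 0.01 to 1.64, adjusted p = 0.219) and that of kFRA against WT −0.36 (SE 0.354, −1.15 to 0.44, adjusted p = 0.489). The summed myeloid markers were also higher in every WT library than in every library of the other genotypes, and their part in the Cdkn1a levels was not tested. An exon of the antisense gene AC167363.2 shares 90 bases with the exons of Cdkn1a, so with the strand setting of the counting not given, its counts are uncertain.

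The promoter of Cdkn1a was searched for the p53 half-site consensus, of which p53 as a tetramer binds a pair, in the window from 250 bases before to 50 bases after each RefSeq start. The stretch below (chr17:29090896-29090947, plus strand, GRCm38.p6) is shown because it holds 2 exact half-sites, in capitals, the first beginning at position −73 from the upstream start and the second after a spacer of 12 bases.
Cdkn1a: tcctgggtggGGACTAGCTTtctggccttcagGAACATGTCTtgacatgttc
A pair of exact half-sites with a spacer of at most 13 bases stood in 24 of the 32851 windows of all genes (0.0731%), and 1 half-site at least in 2745 of them (8.36%). With up to 1 mismatch allowed over a pair, outside the C and G of the core, 206 windows (0.627%) held a pair. The upstream window of Cdkn1a then held 2. The second of these joins the second half-site in capitals to the lower-case run directly after it, which has 1 mismatch. The printed stretch also lies upstream of the window of the other RefSeq start of Cdkn1a (chr17:29093519-29093818), which held no exact half-site. As background, the best known p53 sites of Mdm2 lie within its first intron, outside these windows.

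Of the 10 members, 8 had a window, and at least 1 half-site stood near the start of 6: Cdkn1a, Trp53, Mdm2, Ccng1, Sesn1 and Aen. The stretches of Mdm2 (chr10:117710925-117710954, minus strand, half-site beginning at position −186) and Ccng1 (chr11:40755452-40755491, minus strand, position −185) are shown because these genes stood on opposite sides of the WT level.
Mdm2: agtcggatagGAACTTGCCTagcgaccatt
Ccng1: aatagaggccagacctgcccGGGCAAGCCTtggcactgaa
In Ccng1 the lower-case run directly before the half-site forms a pair with it, with 1 mismatch and no spacer. Pairs with up to 1 mismatch stood in 0.627% of all windows, and the window of Mdm2 held none. The windows of Phlda3 and Btg2 held no exact half-site. A match is a run of letters and not a measured site, and no match says nothing of binding elsewhere. Zmat3 and Perp had no window in the RefSeq table.

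Sesn1 (chr10:41810574-41908424, plus strand) encodes sestrin 1, a stress protein that restrains the growth kinase mTORC1 and that both p53 and FOXO factors induce. It showed the widest differences of the well-counted members. Its CPM was 215, 392 and 298 in DH-LMP2A, 284, 86.7 and 601 in kFRA, and 147, 47.9 and 55.7 in WT. All DH-LMP2A libraries lay above all WT libraries, whereas kFRA replicate 2 lay below WT replicate 1. The log2 fold change against WT was 1.95 in kFRA (SE 0.657, 95% interval 0.48 to 3.43, adjusted p = 0.0681) and 1.85 in DH-LMP2A (SE 0.655, 0.38 to 3.32, adjusted p = 0.103), and that of kFRA against DH-LMP2A was 0.10 (SE 0.633, −1.32 to 1.53, adjusted p = 0.941).

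Whether Sesn1 passed against WT depended on the processing and on single libraries. With all replicates kept, kFRA against WT passed with no filter on low counts (adjusted p = 0.0312) and by the Wald test of DESeq2 (adjusted p = 0.0369). DH-LMP2A against WT passed with library size alone (adjusted p = 0.0494), no filter (0.0456) and only the 6 libraries compared (0.0431). Without kFRA replicate 2 its log2 fold change against WT was 2.48 (adjusted p = 0.00905), and without WT replicate 1 it was 2.64 (adjusted p = 0.0468), both in kFRA. The lowest value there with 1 replicate left out was 1.15. Mki67, a marker of dividing cells, lay at 433 CPM in kFRA replicate 2 against 115 and 122 in replicates 1 and 3. In DH-LMP2A, Mki67 was 469, 447 and 313 CPM and Sesn1 was above all WT libraries in each. Their relation was not tested.

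Btg2 (chr1:134075170-134079120, minus strand) encodes an antiproliferative protein that helps remove poly(A) tails, and it responds both to p53 and, as an immediate early gene, to growth signals. Btg2 rose in kFRA against WT and was the only member past the threshold in any comparison by edgeR's test. Its CPM was 330, 284 and 281 in DH-LMP2A, 459, 359 and 380 in kFRA, and 222, 264 and 314 in WT. Every kFRA library lay above every library of the other genotypes. The log2 fold change of kFRA against WT was 0.58 (SE 0.173, adjusted p = 0.0464), or 1.5-fold with a 95% interval of 1.14 to 1.96. Against DH-LMP2A it was 0.42 (SE 0.173, 0.03 to 0.81, adjusted p = 0.195), and DH-LMP2A against WT gave 0.16 (−0.23 to 0.55, adjusted p = 0.627).

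The call for Btg2 held in 7 of 15 other settings, with log2 fold changes of 0.46 to 0.80 and adjusted p-values of 0.00817 to 0.167. It was lost without kFRA replicate 1 (adjusted p = 0.167), kFRA replicate 3 (0.0845), WT replicate 1 (0.135) or WT replicate 2 (0.134), and held without kFRA replicate 2 or WT replicate 3. It was also lost in 4 settings with all replicates, among them no filter on low counts (adjusted p = 0.0639), a term for the sex of the mice (0.0775) and only the 6 libraries compared (0.0873). The summed CPM of 15 immediate early genes, among them Fos and Egr1, was 3771, 2403 and 4354 in the kFRA replicates. It was 3408, 2452 and 841 in DH-LMP2A and 1819, 1787 and 1994 in WT. The sum was above every WT library in each kFRA library, but it is carried by the abundant genes. The mean log2 CPM of the 15 was 5.66, 5.17 and 5.94 in kFRA against 5.31, 5.62 and 5.53 in WT, which overlap. The part of these genes in the Btg2 level was not tested.

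Aen (chr7:78895854-78911209, plus strand) encodes an exonuclease that takes part in apoptosis, and it was the steadiest member. Its CPM was 12.3, 15.1 and 13.5 in DH-LMP2A, 14.4, 13.4 and 14.4 in kFRA, and 13.9, 14.5 and 14.3 in WT. The log2 fold changes were 0.04 for kFRA against DH-LMP2A (95% interval −0.25 to 0.33, adjusted p = 0.869), −0.02 for kFRA against WT (−0.31 to 0.27, adjusted p = 0.937) and −0.06 for DH-LMP2A against WT (−0.35 to 0.23, adjusted p = 0.829). With library size alone they were −0.10, 0.18 and 0.28, so their signs rest on the scaling. A rise of Aen in kFRA above 1.26-fold of DH-LMP2A or 1.21-fold of WT lies outside these intervals.

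Zmat3 (chr3:32334792-32366014, minus strand) encodes a zinc finger protein that binds RNA and affects splicing. Its CPM was 10.6, 10.2 and 9.43 in DH-LMP2A, 7.73, 10.9 and 8.34 in kFRA, and 9.27, 10.4 and 16.2 in WT. Apart from WT replicate 3, which was highest, the libraries of all genotypes were intermingled. Zmat3 gave a log2 fold change of −0.16 for kFRA against DH-LMP2A (−0.68 to 0.36, adjusted p = 0.714), −0.40 for kFRA against WT (−0.92 to 0.12, adjusted p = 0.243) and −0.24 for DH-LMP2A against WT (−0.76 to 0.28, adjusted p = 0.580; 0.13 with library size alone).

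Phlda3 (chr1:135766119-135769136, plus strand) encodes a small protein that competes with the kinase AKT at the membrane. It had 12, 11 and 7 counts in DH-LMP2A, 7, 11 and 0 in kFRA, and 8, 29 and 21 in WT. With no counts in kFRA replicate 3, the exact Poisson 95% interval there reaches 0.231 CPM. WT replicates 2 and 3 stood above the rest, with 1.48 and 1.34 CPM, and WT replicate 1 with 0.405 CPM did not. Phlda3 gave a log2 fold change of −1.63 in kFRA against WT (95% interval −3.34 to 0.09, adjusted p = 0.162) and −1.25 in DH-LMP2A against WT (−2.86 to 0.37, adjusted p = 0.316). With kFRA against DH-LMP2A at −0.38 (−2.19 to 1.43, adjusted p = 0.814), the interval holds differences of more than 2-fold in either direction, which were not detectable at this depth.

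Perp (chr10:18845071-18857073, plus strand) encodes a membrane protein of apoptosis and of cell junctions in epithelia. It had 2, 4 and 1 counts in DH-LMP2A, 2, 2 and 0 in kFRA, and 2, 12 and 0 in WT. Only DH-LMP2A replicate 2 and WT replicate 2 exceeded the floor of 3 counts, and no test was made.

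**Figure D2:**
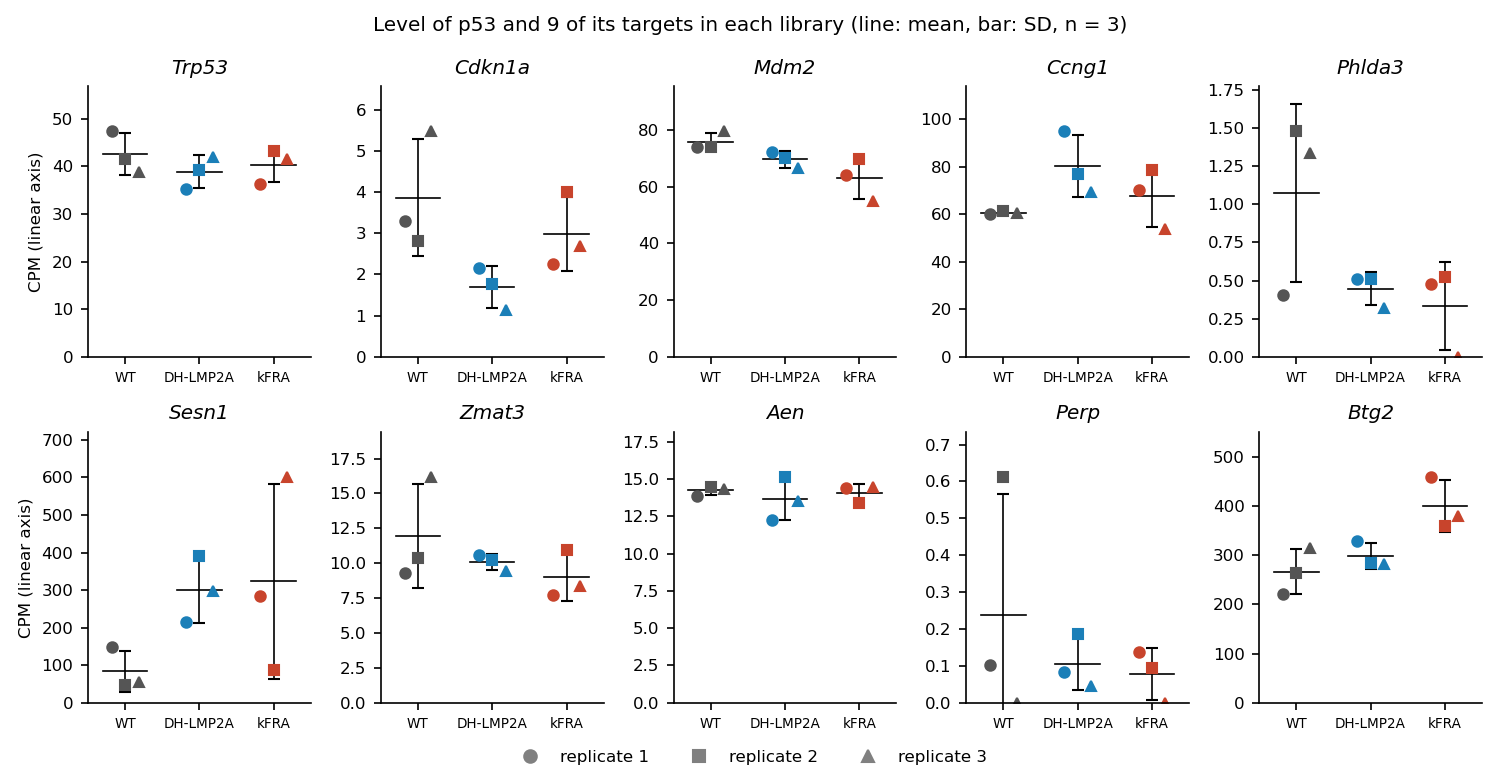
CPM of each of the 10 genes (linear axes from 0, each with its own scale) in WT, DH-LMP2A and kFRA, with 1 point per library, a line at the mean and a bar of 1 SD (n = 3). Bars that would run below 0 end at the axis. In Btg2 the kFRA libraries (359 to 459) lie above all others, and in Cdkn1a the DH-LMP2A libraries (1.14 to 2.16) lie below all others.

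The comparison of kFRA with DH-LMP2A sets the mice with the LCDD label against the other engineered genotype. None of the 9 tested members passed edgeR's quasi-likelihood test or the Wald test of DESeq2, and 2, Cdkn1a and Btg2, had an unadjusted p-value under 0.05. Both were higher in kFRA with no overlap between the libraries. Over all 14199 genes tested, 5.02% passed (1.73% higher and 3.3% lower in kFRA), and 25.6% did not overlap between the libraries, against 2 of 9 members, a share close to the background. The members had 5 positive and 4 negative differences with a median log2 fold change of 0.04, beside −0.0049 for all genes.

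In kFRA against WT, 1 of the 9 members passed, Btg2, while 17.8% of all genes passed (6.68% higher and 11.1% lower in kFRA). With the Wald test of DESeq2 2 passed, Sesn1 (adjusted p = 0.0369) and Btg2. Libraries did not overlap for 2 members, Btg2 upward and Mdm2 downward, against 34.3% of all genes. The signs were 3 positive (Btg2, Sesn1, Ccng1) and 6 negative, of which Trp53 and Aen turned positive with library size alone, with a median of −0.08 beside −0.038 for all genes. The members' shares past the threshold and without overlap thus lay near or below the background, and Cdkn1a, Mdm2, Phlda3 and Zmat3 had negative differences in kFRA.

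In DH-LMP2A against WT none of the 9 passed by edgeR, 3 had an unadjusted p-value under 0.05 (Cdkn1a, Ccng1 and Sesn1), and 1, Cdkn1a, passed by DESeq2. Over all genes 12.4% passed (5.07% higher and 7.3% lower in DH-LMP2A). Libraries did not overlap for 4 members, Cdkn1a and Mdm2 downward and Ccng1 and Sesn1 upward, against 36.6% of all genes. The signs were again 3 positive and 6 negative, with a median of −0.12 beside −0.0081, and with library size alone Trp53, Mdm2, Zmat3 and Aen turned positive. In no comparison did the 8 tested targets share a sign, under either scaling.

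**Figure D3:**
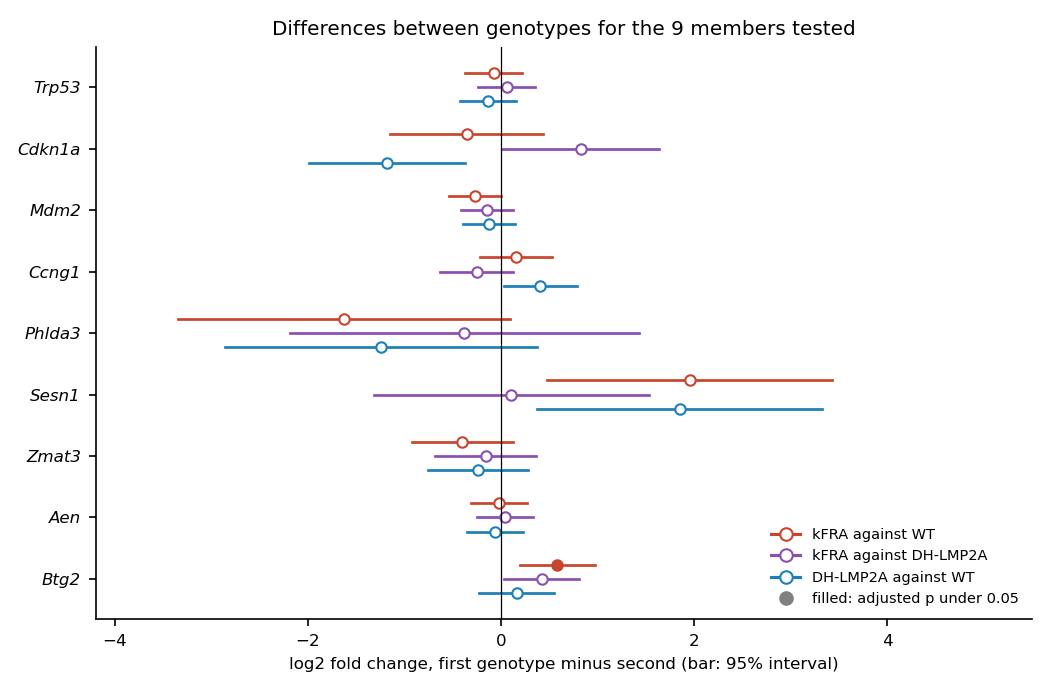
Log2 fold change of the 9 tested genes in each of the 3 comparisons, first genotype minus second, with 95% intervals. Filled points have an adjusted p under 0.05 by edgeR's quasi-likelihood test. Btg2 in kFRA against WT (0.58) is filled, and the intervals of Trp53, Mdm2, Zmat3 and Aen include 0 in each comparison.

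A further 40 genes listed as direct p53 targets were examined, of which 37 were tested and Eda2r, Ak1 and Hic1 were too low. The list does not separate targets known in human cells from those known in mouse, and binding of p53 was not measured here. In kFRA against DH-LMP2A 1 rose and 1 fell by edgeR, beside 5.02% of all genes. DESeq2 passed 5, and it also passed more of all genes than edgeR in this comparison. By edgeR, 9 had an unadjusted p-value under 0.05. The shares of all genes set beside the lists here and below are those of edgeR. Sfn, which encodes the cell cycle inhibitor 14-3-3 sigma, rose by 4.22 on the log2 scale (SE 0.297, adjusted p = 2.07e-05), and Polh, a DNA polymerase that copies past ultraviolet lesions, fell by 1.06 (adjusted p = 0.0249). The median over the 37 was −0.01, beside −0.0049 for all genes. Sfn was set apart by DH-LMP2A alone, where it lay at 2.10 CPM ± 0.541 (SD, n = 3) against 39.2 ± 4.16 in kFRA and 39.1 ± 13.4 in WT.

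Against WT, kFRA showed 2 of the 37 higher and 4 lower, a share near the 17.8% of all genes. DESeq2 passed 8. Ercc5 and Ddb2, both of nucleotide excision repair, rose by 0.89 (adjusted p = 0.00187) and 0.79 (adjusted p = 0.0027). Fas, a death receptor, fell by 1.99 (adjusted p = 0.00399), the kinase gene Plk2 fell by 2.17 (adjusted p = 0.00842), Polh fell by 1.15 (adjusted p = 0.00748) and the small GTPase gene Rap2b fell by 0.79 (adjusted p = 0.0386). The median was −0.21, beside −0.038 for all genes.

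DH-LMP2A against WT showed 2 higher and 5 lower, beside 12.4% of all genes, and DESeq2 passed 8. Ddb2 rose by 0.74 (adjusted p = 0.0044) and Ercc5 by 0.64 (adjusted p = 0.0117), while Sfn fell by 4.22 (adjusted p = 2.38e-05), Fas by 2.09 (adjusted p = 0.00345) and Plk2 by 2.25 (adjusted p = 0.00802). The other two were Gdf15, a secreted stress cytokine, with a change of −2.10 (adjusted p = 0.0234), and Tigar, a regulator of glycolysis, with −0.83 (adjusted p = 0.0462). The median was −0.13, beside −0.0081 for all genes. Fas lay at 13.3 CPM ± 0.941 (SD, n = 3) in WT, 3.37 ± 1.39 in kFRA and 3.11 ± 1.13 in DH-LMP2A. Fas and Plk2 are also expressed by myeloid cells, whose summed markers were highest in WT, and the part of those cells was not tested.

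The most abundant of these targets by CPM did not pass in any comparison by edgeR with all replicates. Trp53inp1, a cofactor of p53 in stress, had a mean of 1118 CPM over the 9 libraries, Cyfip2 322, Pml 162 and Fbxw7 72.3. Bax, the pore-forming apoptosis effector, was at 33.3 CPM ± 3.25 (SD, n = 3) in DH-LMP2A, 34.8 ± 3.38 in kFRA and 36.2 ± 1.70 in WT, with a log2 fold change of −0.06 in kFRA against WT (adjusted p = 0.758). Without kFRA replicate 2, 3 of the other targets rose and 4 fell against DH-LMP2A, and 2 rose and 9 fell against WT, Pml among those that fell, while 22.7% and 38.8% of all genes passed.

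**Figure D4:**
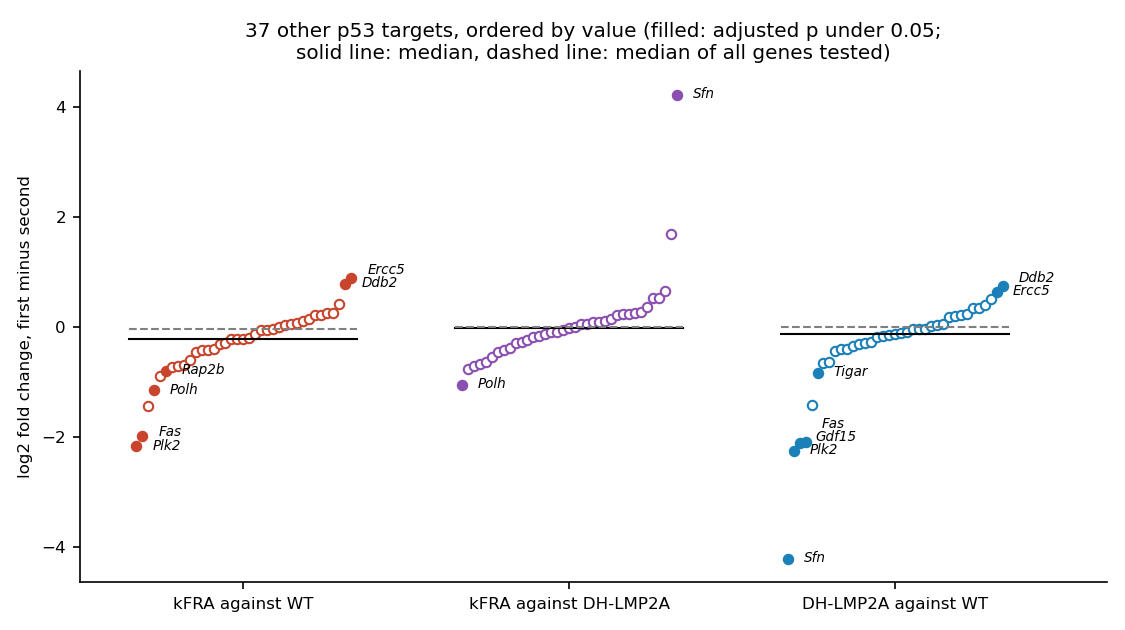
Log2 fold change of the 37 other p53 targets that were tested, ordered by value within each comparison, first genotype minus second. Filled, named points have an adjusted p under 0.05, the solid line is the median of the list and the dashed line that of all genes tested. Most points lie close to the median of all genes, and Sfn lies at 4.22 and −4.22 in the comparisons that include DH-LMP2A.

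Of 22 regulators and partners of p53, 21 were tested and Trp63 was too low. None passed in kFRA against DH-LMP2A by edgeR or DESeq2, and 3 had an unadjusted p-value under 0.05. Against WT, kFRA had 2 higher, Trim28 (0.54) and Wrap53 (0.68), and 3 lower, Trp73 (−4.10, adjusted p = 0.000248), Cdkn2a (−1.96, adjusted p = 0.028) and the ubiquitin ligase gene Rfwd2 (−0.45). DH-LMP2A against WT had 1 higher, the ribosomal protein gene Rpl5 (0.73), and 2 lower, Trp73 (−5.26, adjusted p = 0.000116) and Cdkn2a (−2.13, adjusted p = 0.0235). Beside these, 17.8% of all genes passed in kFRA against WT and 12.4% in DH-LMP2A against WT. Trp73, a relative of p53, was at 8.26 CPM ± 1.93 (SD, n = 3) in WT, 0.463 ± 0.225 in kFRA and 0.209 ± 0.117 in DH-LMP2A. Cdkn2a, which encodes p16 and the MDM2 inhibitor ARF, was at 3.76 ± 1.98, 0.951 ± 0.300 and 0.850 ± 0.449 CPM in the same order. Mdm4, the partner of MDM2 that masks p53, had mean CPM of 265 in DH-LMP2A, 222 in kFRA and 200 in WT, and did not pass in any comparison. Its merged exons span 14798 bases against 5070 for Mdm2, so its higher CPM does not rank it above Mdm2. The counts cannot tell apart the 2 products of Cdkn2a. Without kFRA replicate 2, 7 of these 21 genes passed against DH-LMP2A, beside 22.7% of all genes, and 12 against WT, beside 38.8%.

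Downstream of p21, the DREAM complex silences cell cycle genes, of which 20 were examined. None passed in kFRA against DH-LMP2A by edgeR, although all 20 differences were negative, with a median of −0.64. Of these, 6 had an unadjusted p-value under 0.05 and 2 passed by DESeq2. In kFRA against WT none passed by edgeR or DESeq2, 1 had an unadjusted p-value under 0.05, 16 of 20 were negative and the median was −0.33. In DH-LMP2A against WT Bub1b, a kinase of the spindle checkpoint, rose by 0.77 (adjusted p = 0.0483), beside 12.4% of all genes that passed. There 19 of 20 were positive and the median was 0.32. The summed CPM of the list was 743 to 1074 in DH-LMP2A, 371 to 923 in kFRA and 571 to 742 in WT. The highest kFRA library was replicate 2. Without it 13 of the 20 genes fell and 0 rose against DH-LMP2A, beside 22.7% of all genes that passed in either direction. Against WT 8 fell and 0 rose, beside 38.8% of all genes in either direction. Genes of this kind are transcribed together in dividing cells, so they are not independent of each other. Cdkn1a was lower in DH-LMP2A than in kFRA in every library, the opposite order of this list's median. In DH-LMP2A against WT the signs were also opposite (Cdkn1a −1.18), and in kFRA against WT both were negative (Cdkn1a −0.36). Within kFRA, replicate 2 had both the highest Cdkn1a (4.00 CPM) and the highest sum of the list. The relation of Cdkn1a to these genes was not tested.

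Of 6 other inhibitors of cyclin-dependent kinases, none passed in kFRA against DH-LMP2A by edgeR or DESeq2, and 1 had an unadjusted p-value under 0.05. In kFRA against WT 3 fell, namely Cdkn2a (−1.96), Cdkn2b (−2.97) and Cdkn2d (−0.90), beside 17.8% of all genes that passed (11.1% lower). In DH-LMP2A against WT Cdkn1b, which encodes p27, rose by 0.47 and Cdkn2a fell, beside 12.4% of all genes that passed. Against WT, 4 of the 6 differences were negative in kFRA and 5 in DH-LMP2A, as were those of Cdkn1a. Of the 15 immediate early genes, none passed in kFRA against DH-LMP2A by edgeR, with 1 at an unadjusted p-value under 0.05 and 1 by DESeq2. Egr2 and Nr4a1 fell in kFRA against WT (−2.15 and −1.45) and in DH-LMP2A against WT (−2.33 and −1.08). No other of the 15 passed by edgeR in these comparisons, beside 17.8% and 12.4% of all genes. The median of the 15 was nevertheless positive in kFRA against WT (0.39), with 10 differences positive and 5 negative. All 5 negative ones (Egr2, Nr4a1, Atf3, Klf2 and Ier3) had an unadjusted p-value under 0.05 by edgeR. Of the positive ones, only Klf4, Fosb and Zfp36 did. DESeq2 passed 7 of the 15 in this comparison, and their directions are not given here. It also passed more of all genes there than edgeR, 3498 against 2523.

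The genes whose pattern over the 9 libraries was most like that of Cdkn1a, by Pearson's r of log2 CPM among 14198 genes, were Omp (r = 0.936), Ctps (0.926), Catsperd (0.917), Aunip (0.912) and Fabp4 (0.910). Those most like Trp53 were Scaf4 (0.945), Mllt6 (0.890), Accs (0.877), Il11ra2 (0.877) and Pitpnm1 (0.876). None of them is a member or on the list of other targets. All genes share the genotypes and depths of these libraries. With 9 points the highest of many correlations are large by selection, so these are given as a description.

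**Figure D5:**
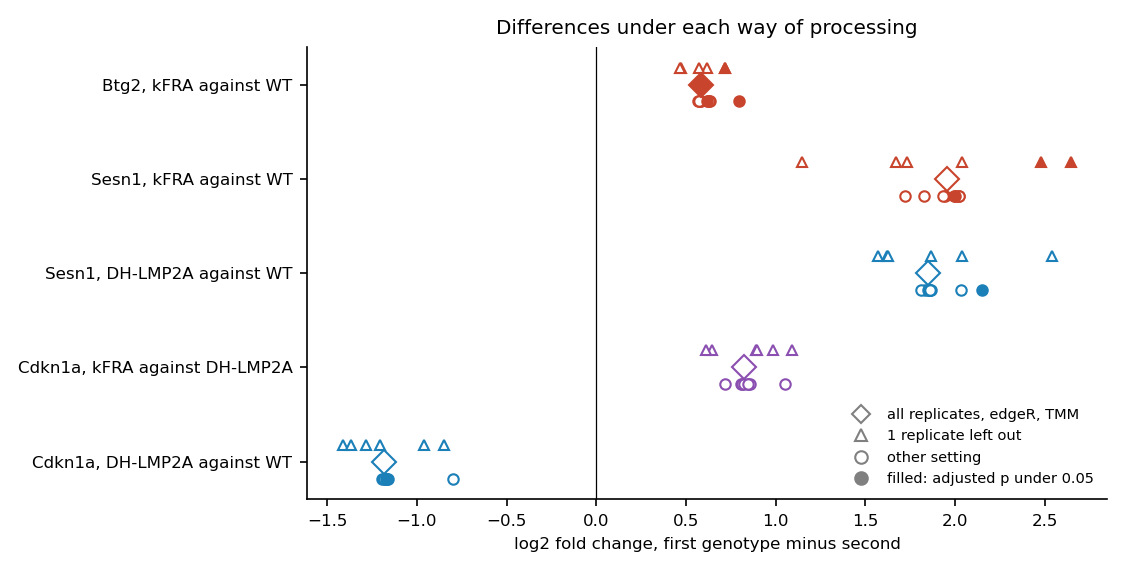
Log2 fold change under each way of processing, first genotype minus second, in 5 member comparisons: Btg2 in kFRA against WT, Sesn1 in kFRA and in DH-LMP2A against WT, and Cdkn1a in kFRA against DH-LMP2A and in DH-LMP2A against WT. Diamonds use all replicates, triangles leave 1 replicate out and circles are the other settings, and filled symbols have an adjusted p under 0.05. In these 5 no value crosses 0, and the values of Sesn1 in kFRA against WT spread from 1.15 to 2.64.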

How the data were processed

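The authors deposited raw read counts per gene from paired-end, strand-specific libraries of polyadenylated RNA, with merged exon coordinates and lengths, per the file headers and the labels' protocols. STAR 2.4.0a, featureCounts of Subread 1.5.0-p3, DESeq2 and the builds mm10 and GRCm38 are named in the submitters' processing notes. The strand setting of the counting is not given in the sources used here. No per-sample column was left out. Each library is 1 mouse.

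Counts were tested with edgeR 4.0.16 (R 4.3.3, limma 3.58.1): filterByExpr left 14199 genes, scaling was by TMM, and 1 quasi-likelihood model with a mean for each genotype used all 9 libraries. The 3 contrasts were tested 2-sided, with Benjamini-Hochberg adjustment over all genes tested and a threshold of 0.05. The SE is the log2 fold change divided by the square root of F. The procedure was tested on simulated data. Replicates were compared first, and none agreed within sampling noise (chi-square per degree of freedom 18.3 to 174).

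The members and lists were chosen with earlier results of these data known. All members are named, and of each list the genes past the threshold (up to 5 per comparison, smallest p first) and the 4 with the highest CPM. Rap2b, Gdf15, Tigar and Bax, and the single genes named as context, were added after their values were seen. Rfwd2 stands in the table for the gene now called Cop1. Likeness used log2 CPM with a prior count of 2. Coordinates are those of GRCm38, checked against GENCODE M21, and promoters are from RefSeq (GRCm38.p6). Alternatives were a fit to the 6 libraries of a contrast, the Wald test (DESeq2 1.42.0), its size factors, scaling on library size, no filter, at least 5 CPM on average, no immunoglobulin genes, a replicate block, a sex term and leaving out each replicate. Lists without kFRA replicate 2 were chosen after seeing the data. Intervals and floors of counts cover counting error only, since reads are not independent molecules. Figures were drawn with matplotlib 3.10.9 (Python 3.11.15).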

Additional observations from a re-analysis of the deposited data

How the results depend on the processing

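Of 399 values of single members over 18 other settings, 360 kept their direction and side of the threshold, 8 lost a call, 9 gained one and 22 changed sign. In kFRA against WT the number of members past the threshold, 1, was 0 with the replicate block, with the sex term and with only the 6 libraries compared, 2 with the Wald test of DESeq2, and 0 to 2 with 1 replicate left out (0 without kFRA replicate 1, kFRA replicate 3 or WT replicate 2). In DH-LMP2A against WT it rose from 0 to 1, with Sesn1 under library size alone, no filter and only the 6 libraries compared, and with Cdkn1a under the sex term and the Wald test. Over all genes the count was 1314 with the Wald test in kFRA against DH-LMP2A and 1095 with a mean of at least 5 CPM in DH-LMP2A against WT. With 1 replicate left out it ranged from 352 to 3299 in kFRA against DH-LMP2A, from 1271 to 5632 in kFRA against WT and from 932 to 1408 in DH-LMP2A against WT; the cause was not tested.

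The sign changes all concern differences that passed no threshold, and are given in log2. Aen in kFRA against WT was 0.021 with DESeq2's size factors, 0.18 with library size alone, 0.035 without immunoglobulin genes, 0.033 with only the 6 libraries, 0.017 with the Wald test and −0.036 to 0.082 with 1 replicate left out. Library size alone gave −0.066 for Trp53, −0.15 for Sesn1 and −0.098 for Aen in kFRA against DH-LMP2A, 0.13 for Trp53 in kFRA against WT, and 0.19 for Trp53, 0.22 for Mdm2, 0.13 for Zmat3 and 0.28 for Aen in DH-LMP2A against WT. That scaling moved the median of all genes to −0.14, 0.17 and 0.33 in the order kFRA against DH-LMP2A, kFRA against WT and DH-LMP2A against WT, and the share of calls that were higher from 34.4%, 37.6% and 41.0% to 26.0%, 72.0% and 79.9%. Sesn1 in kFRA against DH-LMP2A was −0.21 with the replicate block, −0.087 with the sex term and −0.70 to 0.62 with 1 replicate left out. With 1 replicate left out, Phlda3 in kFRA against DH-LMP2A ranged from −0.87 to 0.17, Trp53 in kFRA against WT from −0.14 to 0.0055, and in DH-LMP2A against WT Zmat3 from −0.39 to 0.039 and Aen from −0.14 to 0.0044.

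Sample titles give the replicate numbers, which name different mice. Deviations of same-numbered libraries correlated between −0.21 and 0.20, not all above 0.1 in any comparison, and not every library correlated best with its own number, so they share only a number. With the replicate block Btg2 in kFRA against WT was 0.58 (adjusted p = 0.0601), and 685, 2930 and 2067 genes passed in the 3 comparisons in that order, against 713, 2523 and 1756. Xist exceeded the Y-linked Ddx3y in 2 DH-LMP2A, 1 kFRA and 2 WT libraries, and with a sex term the adjusted p of Btg2 was 0.0775. Depth limits Phlda3 and Perp most.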
